A study of Mus musculus and Rattus norvegicus with 37 samples.

Results

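The liver levels of Igf1, its receptor Igf1r, the acid-labile subunit Igfals and 5 IGF binding protein genes (Igfbp1, Igfbp2, Igfbp3, Igfbp4 and Igfbp7) are described here across 4 comparisons. These 8 genes were taken by their symbols out of 47929 named genes in each of 2 mouse tables and 28026 in each of 2 rat tables, and all 8 were listed in every table. RNA-seq was made from 37 livers collected in the fed state, 21 of female mice and 16 of male rats. Mice on the C57BL/6J background received 1 subcutaneous injection of saline or of LNA29, a pair of locked nucleic acid inhibitors against miR-29a-3p and miR-29b/c-3p at 20 mg/kg each, and livers were taken on day 7. The animals were WT/Floxed (8 given LNA29 and 5 saline) or L-Sirt1 KO (4 and 4), the second label standing for a liver-specific knockout of the deacetylase gene Sirt1. The rats were 5.5-month-old Zucker Fatty rats (ZFR, fa/fa, with a mutated leptin receptor) and Zucker Lean rats (ZLR) on chow (n = 4 each), and 3-month-old ZFR given BT2, an inhibitor of the kinase that inactivates branched-chain ketoacid dehydrogenase, at 20 mg/kg daily for 1 week or its DMSO vehicle (n = 4 each).

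Some features of the groups limit these comparisons. WT/Floxed pooled 7 WT mice aged 9 to 11 weeks (4 with LNA29 and 3 with saline) with 6 floxed mice aged 15 to 20 weeks (4 and 2), the age of the L-Sirt1 KO littermates, and 1 saline-treated floxed mouse had been excluded by the authors. The mouse work was done at 2 institutions, which the labels do not assign to animals. Gene-level Sirt1 values were 492.7 to 699.1 normalized counts in WT/Floxed and 535 to 617 in L-Sirt1 KO livers. These values do not separate exons, so they cannot show the loss of part of the gene, and the genotype is used here as labelled. Depth was even in mice, at an estimated 42.6 to 78.0 M reads a library. In rats it ran from 0.188 to 58.5 M reads, with 6 of 16 libraries under 1 M, and 1 read was worth up to 10.5 normalized counts.

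IGF1 is a growth factor that the liver releases into blood, where growth hormone acting through its receptor and Stat5 drives its transcription in hepatocytes. Most circulating IGF1 is carried in a ternary complex with IGFBP3 or IGFBP5 and the acid-labile subunit, while IGFBP1 and IGFBP2 form smaller complexes, and hepatic Igfbp1 is switched on by the FoxO transcription factors when insulin signalling is low. Mature hepatocytes carry few IGF1 receptors. The liver therefore acts mainly as a source of the ligand and its carriers.

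LNA29 inhibits a microRNA family, so the sequences that bear first on these genes are the family's shared seed and its matches in their 3′ untranslated regions. The mature mouse miR-29 sequences from RefSeq (GRCm38.p6) share 1 seed, bases 2 to 8, printed in capitals:
miR-29a-3p: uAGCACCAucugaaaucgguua
miR-29b-3p: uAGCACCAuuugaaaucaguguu
miR-29c-3p: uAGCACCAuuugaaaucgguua

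The 7-base match to that seed, TGGTGCT on the transcript strand, was found in annotated 3′ UTRs of 2 of the 8 genes, Igf1 and Igfbp4. The search covered the 3′ UTRs (GRCm38) of every protein-coding transcript, and the lengths given are those of the longest 3′ UTR of a gene. Among all 21020 genes with a 3′ UTR, 13.8% held it, and 2.99% held the 8-base match TGGTGCTA. Igf1 had 2 matches, both of 8 bases, at bases 937 and 3571 of a 6308-base 3′ UTR on chromosome 10. Igfbp4 had 2 overlapping windows with 7-base matches 10 bases apart, at bases 1644 and 1654 of 2813 on chromosome 11. The windows of 30 bases are shown because they are the places in these genes where the inhibited microRNAs could pair, with the match in capitals and all on the plus strand:
Igf1, chr10:87931660-87931689: ttttagtacaaTGGTGCTAttttgtagttt
Igf1, chr10:87934294-87934323: ctacgccaatgTGGTGCTAttgtttcttta
Igfbp4, chr11:99053212-99053241: catgtgtcaccTGGTGCTcactggtgctct
Igfbp4, chr11:99053222-99053251: ctggtgctcacTGGTGCTctctccctctcc

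On GRCm38 the genes that the results turn on lie at chr10:87858265-87937042 (Igf1), chr11:7197782-7202546 (Igfbp1) and chr1:72824503-72852474 (Igfbp2), all on the plus strand. No match was found in the 3′ UTRs of Igf1r (7267 bases), Igfals (262), Igfbp1 (529), Igfbp2 (312), Igfbp3 (1435) or Igfbp7 (240). Igfbp1 and Igfbp2, the binding protein genes that the tests below called after LNA29, were thus among the genes without a match, while Igf1 and Igfbp4, which hold matches, were not called in mice. A match is a description of sequence and was not tested as a site of repression.

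The levels of the 8 genes were compared per kb of the longest annotated transcript, since raw counts grow with transcript length. On that length Igfbp2 was the highest of the 8 in all 4 mouse groups, with 25480 ± 6120 normalized counts per kb (SD, n = 5) in saline-treated WT/Floxed livers and 42279 ± 7022 (n = 8) with LNA29. Igfbp4 came next in every mouse group, at 21599 ± 3043 per kb with saline and 21150 ± 2059 with LNA29. In saline-treated WT/Floxed livers the ranges of Igfbp2 (19508 to 35422) and Igfbp4 (16723 to 24218) overlapped, and with LNA29 they did not. Igf1 at 6853 ± 588 per kb and Igfbp7 at 5009 ± 563 followed in saline-treated WT/Floxed livers, with Igfals (3583 ± 732) and Igfbp1 (3551 ± 3419) next to each other and not separable by their spread. Igfbp3, at 570 ± 127 per kb, and Igf1r, at 14.3 ± 1.25, were the lowest of the 8 in all 4 mouse groups. Igfbp1 was at place 6 of 8 with saline and 3 with LNA29 in WT/Floxed, with Igf1, Igfbp7 and Igfals each 1 place lower with LNA29. In L-Sirt1 KO livers Igfbp1 and Igfbp7 exchanged places 5 and 3. This order depends on the transcript taken, because the annotated coding transcripts of Igf1 run from 510 to 7052 bases and those of Igfbp4 from 489 to 3831. By the shortest transcript, Igfbp4 (169210 per kb) and Igf1 (94757) both lay above Igfbp2 (33604) in saline-treated WT/Floxed livers, and in the other 3 mouse groups as well. Several genes overlap others on the opposite strand, and whether counting used strand is not stated in the sources used here. Igfbp7 shares 85 exonic bases with Polr2b, while Igf1 overlaps Igf1os only outside its exons.

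**Figure D1:**
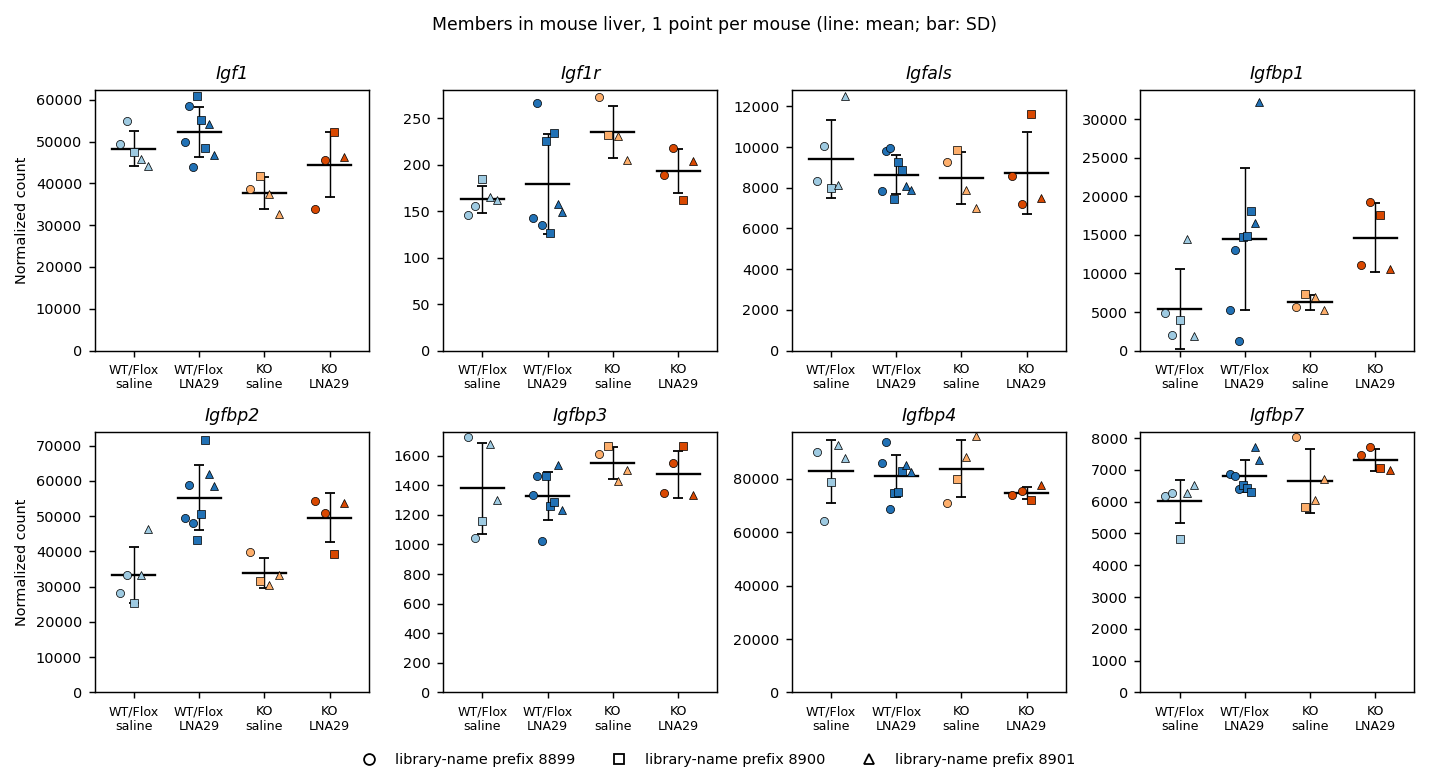
Normalized counts (y axis, linear from 0) of the 8 genes in each mouse liver, by genotype label and treatment on the x axis, with the mean as a line, the SD as a bar and the marker shape giving the number that opens the library name, 1 number for each flow cell; the WT/Floxed and L-Sirt1 KO tables were normalized separately. Igfbp2 sits higher with LNA29 under both genotype labels, and Igfbp1 does so in L-Sirt1 KO livers, while its WT/Floxed groups overlap (1236 to 32168 with LNA29 and 1826 to 14450 with saline).

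In WT/Floxed mice, LNA29 was compared with saline to ask what inhibition of miR-29 changes in the liver. A gene was called when limma gave p under 0.05, adjusted p under 0.2, a difference of over 1.2-fold and an average of over 50 normalized counts, the criteria of the study. Of the 8 genes 1 was called, Igfbp2, which rose, whereas 4.35% of the 15811 genes tested were called and 2.42% were called higher. Their median log2 fold change was 0.10, beside 0.0017 over all genes tested. In bulk liver, a change in the RNA of each cell and a change in the number of cells of a type cannot be told apart.

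Igfbp2 encodes a carrier that is produced by hepatocytes, and the study itself named it among its responding genes, so its direction here is not independent evidence. Its normalized counts were 28190, 33274, 25497, 33253 and 46296 in saline replicates 1 to 5. With LNA29 they ran from 43156 through a median of 54610 to 71552. Of the 8 LNA29 values, 7 lay above every saline value, and the groups overlapped only through saline replicate 5 and LNA29 replicate 4. Igfbp2 rose by 0.74 on the log2 scale (SE 0.14), a 1.68-fold difference with a 95% interval from 1.36 to 2.07 (limma, adjusted p = 0.0195). The two-sided exact permutation test gave p = 0.00155, against a smallest possible value of 0.000777. The log2 difference was 0.76, 1.08 and 0.62 within the 3 flow cells, and 0.87 among WT (4 against 3) and 0.53 among floxed mice (4 against 2). With replicate number as a block the call was lost, at 0.61 (limma, adjusted p = 0.290), although these numbers did not pair the samples.

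Igfbp1 encodes the acutely regulated carrier that can sequester IGF1, and its values were the most scattered of the 8. The saline livers held 4873, 1984, 3943, 14450 and 1826 normalized counts in replicates 1 to 5. With LNA29 the lowest value was 1236, the median 14826 and the highest 32168. Saline replicate 4 stood with the LNA29 livers, and LNA29 replicate 3, a floxed mouse, was the lowest of all 13. The fitted difference was 1.43 on the log2 scale (SE 0.67), 2.70-fold with a 95% interval from 0.995 to 7.31, and it was not called (limma, adjusted p = 0.380, exact permutation p = 0.106). Without LNA29 replicate 3 the difference was 1.88 and met the criteria (limma, adjusted p = 0.0871). Within the flow cells it was 0.50, 2.01 and 2.16, and it was 0.80 among WT and 2.42 among floxed mice.

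The ligand, its receptor and the other carriers were not called in WT/Floxed mice. Igf1 had 49338, 54876, 47512, 45778 and 44127 normalized counts with saline and 43869 to 60885 (median 52068) with LNA29. Of the LNA29 values 3 lay above every saline value and 1 below. Its log2 difference was 0.11, with a 95% interval from -0.08 to 0.29 (limma, adjusted p = 0.664). The upper bound of that interval corresponds to 1.23-fold for this gene with 2 seed matches of 8 bases. For Igfbp4, the other gene with seed matches, the log2 difference was -0.02 with an interval from -0.23 to 0.19. Igfbp7, a low-affinity IGF binder found in vessel walls, was at 6165, 6274, 4826, 6257 and 6530 with saline and 6306 to 7732 (median 6669) with LNA29. All 8 LNA29 values of Igfbp7 exceeded the saline median, but its log2 difference of 0.18 did not pass (limma, adjusted p = 0.333, exact permutation p = 0.0101) and was 1.13-fold, below the fold limit. The difference of Igfbp7 was 0.105 without saline replicate 3, and it was 0.29 among WT and 0.04 among floxed mice. Igf1r (0.09), Igfals (-0.11) and Igfbp3 (-0.04) had log2 differences whose 95% intervals all included 0.

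In mice labelled L-Sirt1 KO the same comparison asks whether the response is also present when hepatic Sirt1 is deleted. Of the 8 genes 2 were called, Igfbp1 and Igfbp2, and both rose, whereas 1.87% of the 15885 genes tested were called and 1.19% were called higher. The median log2 fold change of the 8 was 0.08, beside -0.0027 over all genes tested.

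Igfbp1 was at 5592, 7286, 6933 and 5224 normalized counts in saline replicates 1 to 4 and at 11057, 19309, 17642 and 10631 with LNA29. Every LNA29 value lay above every saline value, as it did for 3.65% of all genes tested. Igfbp1 rose by 1.19 on the log2 scale (SE 0.21), a 2.28-fold difference with a 95% interval from 1.65 to 3.15 (limma, adjusted p = 0.0603). The exact permutation p was 0.0286, the smallest that 4 against 4 allows. Within the 3 flow cells the log2 differences of Igfbp1 were 1.39, 1.28 and 0.82.

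Igfbp2 had 39875, 31676, 30383 and 33253 normalized counts with saline and 54167, 50973, 39379 and 53805 with LNA29. The groups met at 1 place, where LNA29 replicate 3 fell just under saline replicate 1. Igfbp2 rose by 0.55 on the log2 scale (SE 0.13), with a 95% interval from 0.26 to 0.83, a difference of 1.46-fold (limma, adjusted p = 0.148, exact permutation p = 0.0571). That call was lost without LNA29 replicate 1, 2 or 4 or without saline replicate 2, 3 or 4, where the log2 difference was 0.50 to 0.54 (limma, adjusted p from 0.225 to 0.355). It was kept without LNA29 replicate 3 (0.66) or saline replicate 1 (0.63). With flow cell as a covariate and all 8 libraries the call was also lost, at 0.51 (limma, adjusted p = 0.224).

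Igf1 was at 38663, 41752, 37356 and 32572 normalized counts with saline and at 33855, 45524, 52335 and 46296 with LNA29, with 3 of 4 treated livers above all the controls. Its log2 difference was 0.23 (95% interval -0.08 to 0.54, limma, adjusted p = 0.576). Igf1r, the low-level receptor, had 273, 232, 230 and 205 with saline and 189, 218, 162 and 204 with LNA29, a log2 difference of -0.28 that did not pass (limma, adjusted p = 0.505). Igfbp4 (-0.16), Igfbp7 (0.15), Igfbp3 (-0.08) and Igfals (0.02) also did not pass.

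The response to LNA29 was not shown to differ between the genotype labels for any of the 8 genes in the limma interaction test. The adjusted p ran from 0.705 for Igf1r to 0.975 for Igfbp3, and 0.0449% of 15601 genes, 7 in all, passed at 0.2. For Igfbp2 the L-Sirt1 KO response minus the WT/Floxed response was -0.20 on the log2 scale, with a 95% interval from -0.64 to 0.25. For Igfbp1 it was -0.24, with an interval from -2.16 to 1.68 that spans large differences in either direction. For Igf1 it was 0.12, from -0.20 to 0.45.

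**Figure D2:**
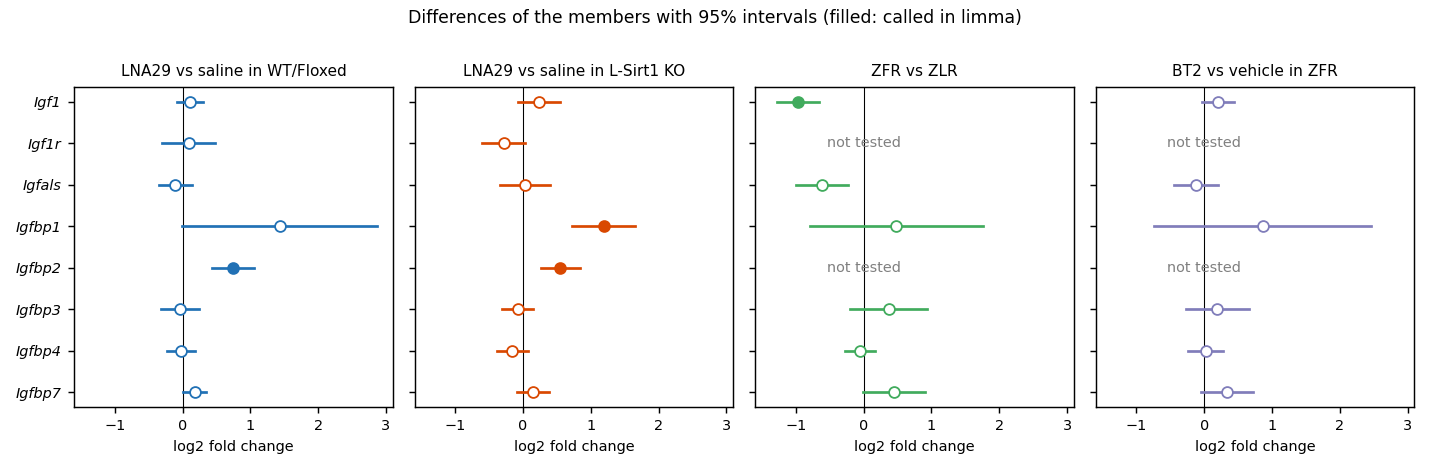
Log2 fold changes (x axis) of the 8 genes in the 4 comparisons with 95% intervals from limma, where filled points were called and 2 genes were not tested in rats because their mean was under 10. Igfbp2 is filled in both mouse panels, Igfbp1 in the L-Sirt1 KO panel and Igf1, at -0.97, in the ZFR panel.

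The variation of Igfbp1 from liver to liver was compared with that of all other genes. Over the 13 WT/Floxed libraries, the genes with a mean above 50 whose log2 values were most like it were Irs2, an adaptor of the insulin and IGF1 receptors (r = 0.959, rho = 0.945), G6pc, the last enzyme of glucose release (r = 0.931, rho = 0.912), and Zfp618 (r = 0.926, rho = 0.879). In the 8 L-Sirt1 KO libraries the same r was 0.755 (rho = 0.786) for Irs2 and 0.780 (rho = 0.667) for G6pc, but 0.206 (rho = 0) for Zfp618. In rats Irs2 was like Igfbp1 in the BT2 table (r = 0.938 over 8 libraries) and not in the ZFR and ZLR table (r = -0.279). These values describe libraries that share treatment groups and flow cells and carry no test. Irs2 itself was at 999 to 2634 normalized counts with saline and 1009 to 4075 (median 2917) with LNA29 in WT/Floxed livers, and its log2 difference of 0.87 just missed the limit (limma, adjusted p = 0.207). In L-Sirt1 KO livers Irs2 rose by 0.94 on the log2 scale, from 890, 1896, 1201 and 1939 to 2673, 3006, 2524 and 2608 (limma, adjusted p = 0.165), and its groups did not overlap.

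**Figure D3:**
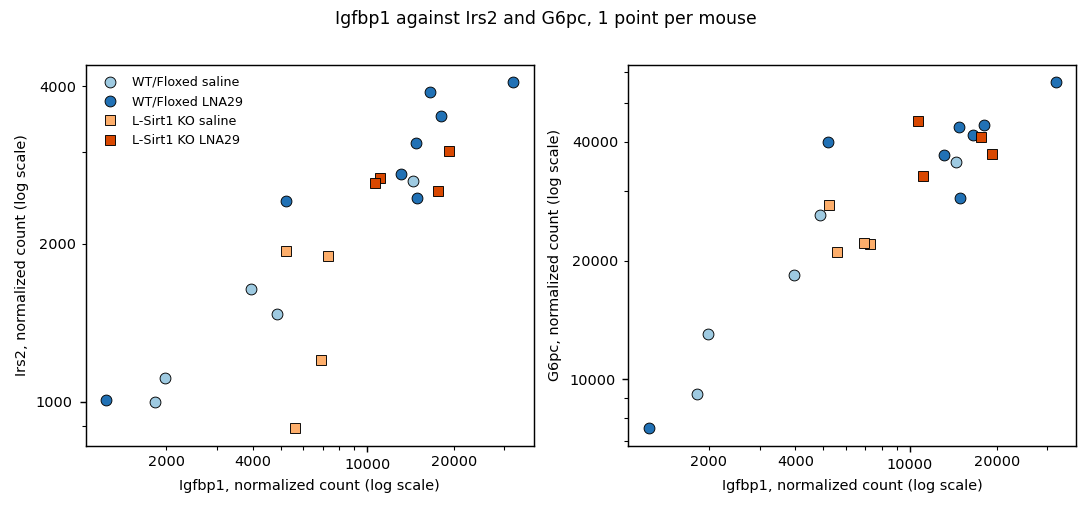
Normalized counts of Igfbp1 (x axis, log scale) against Irs2 and G6pc (y axes, log scale), 1 point per mouse, with colour and shape giving genotype label and treatment. The points climb together from LNA29 replicate 3 of WT/Floxed (Igfbp1 1236, Irs2 1009) to LNA29 replicate 8 (32168 and 4075).

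The promoter of Igfbp1 is shown because insulin is known to repress this gene through it. Promoters from 250 bases before to 50 after the annotated starts (RefSeq, GRCm38.p6) were searched on both strands for the insulin response core CAAAACA, the forkhead core GTAAACA and the Stat element TTCNNNGAA, which did not overlap one another where found. Of the promoters of the 8 genes, that of Igfbp1 alone held CAAAACA, 108 bases before its start, as did 6.28% of 32851 promoters. Stat elements were found only in promoters of Igfals, where 8.30% of all promoters held one, and GTAAACA only in 1 promoter of Igfals (3.65%). The windows of 30 bases have the match in capitals, on the plus strand:
Igfbp1, chr11:7197668-7197697: gagctcacaagCAAAACAaacttattttga
Igfals, chr17:24878162-24878191: tctgccaggtgTTCCTAGAAgaggccctgg
Such matches describe letters and not binding. Igfbp1 and Igfbp3 are neighbours on chromosome 11, on opposite strands and 3539 bases apart, and only Igfbp1 was called after LNA29.

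The rest of the IGF axis was followed in 32 further genes. In WT/Floxed mice 0 of the 27 tested were called, with a median log2 fold change of -0.02. At an unadjusted p under 0.05 in limma there were 5 of the 27, beside 13.3% of all genes tested. Among the other ligand and receptors Insr was the most abundant (log2 difference -0.0037) and Igf2r, which clears IGF2, had the largest value (0.04). Of the other binding proteins Igfbp5 was the most abundant and had the largest value (-0.72, limma, adjusted p = 0.448). Among proteases and stanniocalcins, which free or guard IGF1 from its carriers, Htra1 was at 0.45 and the most abundant gene, Adamts1, at -0.02. From the growth hormone receptor to Stat5, Ghr was the most abundant (-0.15) and the feedback inhibitor Socs2 had the largest value (0.59, limma, adjusted p = 0.475). Of the adaptors and kinases Akt2 was the most abundant (0.05).

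In L-Sirt1 KO mice 1 of 27 tested axis genes was called, Irs2, with a median log2 fold change of 0.03 and 2 at an unadjusted p under 0.05 in limma, beside 11.2% of all genes tested. Ghr was at 0.23, Insr at 0.0095, Igf2 at 0.21 and Akt2 at -0.06. The largest value in the growth hormone list was that of the inhibitor Socs3 (-1.15, limma, adjusted p = 0.578). Igfbp6 (-0.19), Igfbp5 (0.18), Stc2 (0.23) and Adamts1 (-0.06) did not pass either. In mice the called genes of the IGF axis were thus Igfbp1, Igfbp2 and Irs2.

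Liver identity and the other cell types were checked by marker lists. Over all genes tested, 4.35% were called in WT/Floxed mice and 1.87% in L-Sirt1 KO mice. Hepatocyte genes dominated, with Alb at a mean of 5049200 normalized counts in the WT/Floxed table, and no marker was at 0 in every mouse library. In WT/Floxed mice 1 of 8 hepatocyte markers was called higher (Apoa1, 0.51) and 1 lower (Tat, -0.48). Of 8 liver sinusoidal endothelial markers 1 was called lower (Lyve1, -0.51), and their summed level was 11348 to 18276 with LNA29 and 13926 to 18174 with saline. No stellate (8 tested), Kupffer (8) or cholangiocyte (6) marker was called, with median log2 fold changes of 0.04, -0.43 and 0.29. In L-Sirt1 KO mice 0 of 8 hepatocyte, 0 of 8 stellate and 0 of 6 cholangiocyte markers were called, but 2 of 8 endothelial (Stab1, -0.53, and Lyve1, -1.17) and 2 of 8 Kupffer markers (Clec4f, -0.29, and Vsig4, -0.54) were called lower. The summed endothelial markers were 14559, 15135, 15808 and 15815 with LNA29 and 16095, 16840, 16668 and 17049 with saline, with Clec4g the most abundant. The summed Kupffer markers, led by Clec4f, were 18024, 14766, 18450 and 14699.9 with LNA29 and 18521, 20852, 19582 and 22062 with saline. Neither pair of groups overlapped. Their part in the Igfbp1 and Igfbp2 results was not tested.

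Feeding and clock genes were read beside Igfbp1 because it is under acute control. Of 8 fasting and insulin-suppressed genes, Fgf21 was called higher in WT/Floxed mice (1.90) and G6pc in L-Sirt1 KO mice (0.75), and the list medians were 0.71 and -0.17. In L-Sirt1 KO mice Fgf21 had the largest value of the list in the other direction, at -2.51 and not called (limma, adjusted p = 0.247). Positive values were seen for 7 of the 8 in WT/Floxed and 3 of the 8 in L-Sirt1 KO mice. Of 14 clock genes 0 were called in either comparison, with the output gene Dbp showing the largest values (-1.12 and -3.04). In L-Sirt1 KO mice 5 of the 14 had positive values. Among these, Npas2 (1.51, limma, adjusted p = 0.293) and Arntl (0.89, limma, adjusted p = 0.410) had every LNA29 value above every saline value. Such a lack of overlap in that direction was seen in 3.65% of all genes tested. The median log2 fold change of the clock list there was -0.20. Saline replicate 3 of L-Sirt1 KO stood apart with 7449 normalized counts of Dbp against 146 to 480 in the other 3, and without it Igfbp1 was still called at 1.24 (limma, adjusted p = 0.0830). Of 11 growth hormone responsive genes, Mup20 (0.59) was called higher and Mup3 (-0.40) and Cyp3a44 (-1.63) lower in WT/Floxed mice, and Hsd3b5 (2.55) higher in L-Sirt1 KO mice. The part of feeding state or collection time in the Igfbp1 values was not tested.

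In rats, ZFR were compared with ZLR to ask what accompanies obesity from loss of leptin receptor function. The call here was a limma adjusted p under 0.05. Igf1r and Igfbp2 had means under 10 normalized counts and were not tested. Igf1r was at 0 to 0.820 in all 8 rats, and Igfbp2, one of the most abundant of the genes in mouse liver, was at 0 to 3.53 in all but ZLR replicate 1 (36.1). Of the 6 genes tested 1 was called, Igf1, which fell, whereas 4.25% of 8633 genes were called and 2.46% were called lower. The median log2 fold change of the 6 was 0.16, beside 0.07 over all genes tested.

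**Figure D4:**
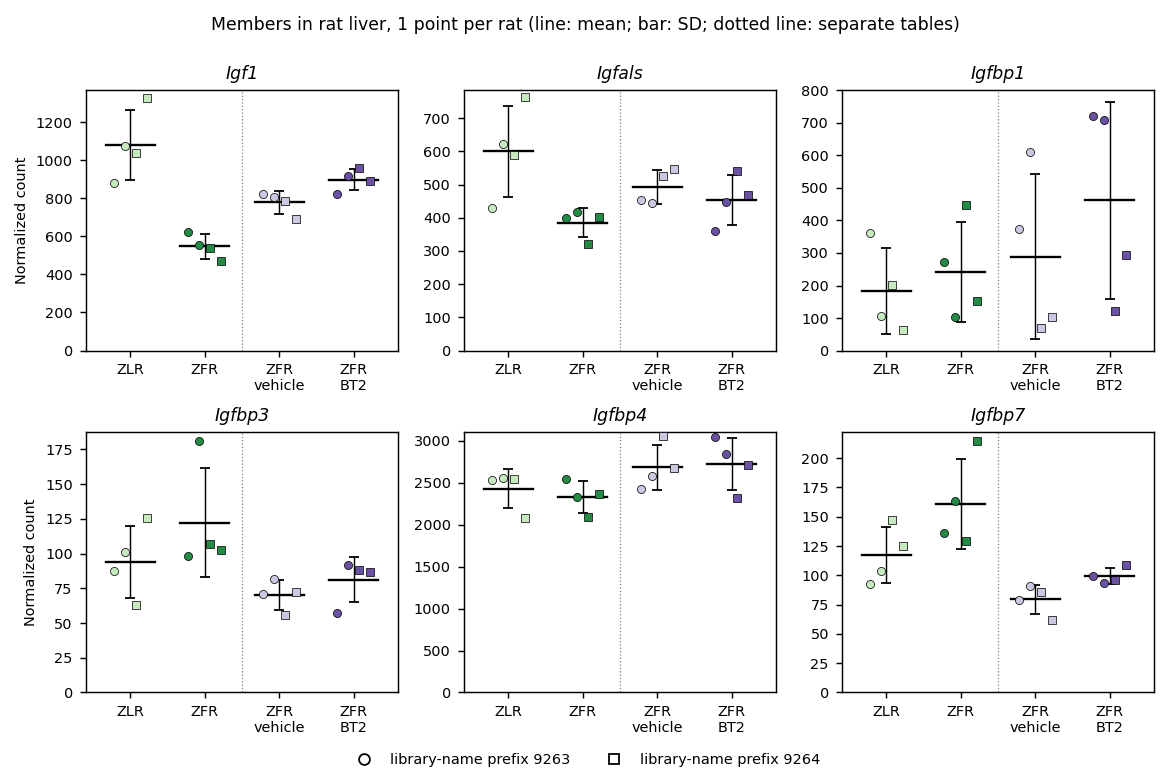
Normalized counts (y axis, linear from 0) of the 6 tested genes in each rat liver, with the mean as a line, the SD as a bar and the marker giving the number that opens the library name; the dotted line parts tables that were normalized separately. Igf1 lies at 468 to 623 in ZFR and 879 to 1325 in ZLR, and Igfbp1 in the BT2 table splits by flow cell.

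Igf1 had 879, 1073, 1038 and 1325 normalized counts in ZLR replicates 1 to 4 and 623, 556, 541 and 468 in ZFR. Every ZFR value lay below every ZLR value, as for 6.68% of all genes tested. Igf1 fell by 0.97 on the log2 scale (SE 0.14), to 0.510-fold with a 95% interval from 0.412 to 0.632 (limma, adjusted p = 0.00402, exact permutation p = 0.0286). An estimated 98.6 and 127 reads stood behind ZLR replicates 3 and 4, against 259 to 24850 in the others. The log2 difference was -0.72 in the flow cell of replicates 1 and 2 and -1.22 in that of replicates 3 and 4. With both of those ZLR libraries left out, a choice made after seeing the data, it was -0.84 (limma, adjusted p = 0.0115). Where every library under 5 M reads was left out, 2 ZLR and 1 ZFR remained and the difference was -0.64, in a fit that takes the lone ZFR to vary like the ZLR and whose p is not read as a lost call (limma, adjusted p = 0.367).

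Igfals, whose product holds IGF1 in the ternary complex, was at 428, 622, 590 and 762 in ZLR and 399, 418, 320 and 403 in ZFR. Those groups did not overlap either. The log2 difference was -0.62 (SE 0.17), or 0.651-fold with a 95% interval from 0.499 to 0.849, but it missed the limit (limma, adjusted p = 0.0848, exact permutation p = 0.0286). Without ZLR replicate 1 it was -0.77 and passed (limma, adjusted p = 0.0166), as it did with sample quality weights at -0.51 (limma, adjusted p = 0.0201). Igfals was closest to Igf1 in within-group variation in this table, with r = 0.719 and rho = 0.714 over the 8 libraries.

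The binding proteins were not called in ZFR, although Igfbp7 passed under both weightings of the libraries. Igfbp7 was at 92.8, 104, 147 and 125 normalized counts in ZLR and 136, 164, 130 and 215 in ZFR, a log2 difference of 0.45 with an interval from -0.0067 to 0.90 (limma, adjusted p = 0.310). With sample quality weights it was 0.55 (limma, adjusted p = 0.0242), and with precision weights from estimated reads 0.58 (limma, adjusted p = 0.00939), both past the limit. Only an estimated 14 and 12 reads lay behind its values in ZLR replicates 3 and 4. Igfbp1 ranged from 62.7 to 361 in ZLR and from 102 to 447 in ZFR, with overlapping groups and a log2 difference of 0.48 (95% interval -0.80 to 1.76). With a library left out, that difference ran from 0.07 to 0.91. Igfbp3, the main carrier in blood, was at 87.1, 101, 63.2 and 125 in ZLR and 98.6, 181, 107 and 103 in ZFR (0.37, limma, adjusted p = 0.502). Igfbp4 was even, at 2078 to 2561 and 2089 to 2551 (-0.06, 95% interval -0.28 to 0.17).

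Of the 32 other axis genes 31 were listed in rats and 21 tested, and 2 were called lower, Socs2 and Cish, with a median log2 fold change of -0.07. At an unadjusted p under 0.05 in limma there were 7 of the 21, beside 16.6% of all genes tested. Both are targets and feedback inhibitors of growth hormone signalling through Stat5. Socs2 was at 39.7, 179, 137 and 198 normalized counts in ZLR and 10.97, 7.06, 6.27 and 4.67 in ZFR, without overlap. It fell by 3.91 on the log2 scale (SE 0.49, limma, adjusted p = 0.00211), although ZFR replicates 2 to 4 held an estimated 6, 3 and 3 reads of it. Cish was at 70.2, 201, 63.2 and 157 in ZLR and 44.7, 7.06, 12.5 and 14.0 in ZFR, and fell by 2.73 (limma, adjusted p = 0.0223). Ghr, the receptor upstream, was at 826 to 906 and 659 to 986 with a log2 difference of -0.10 (limma, adjusted p = 0.700).

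**Figure D5:**
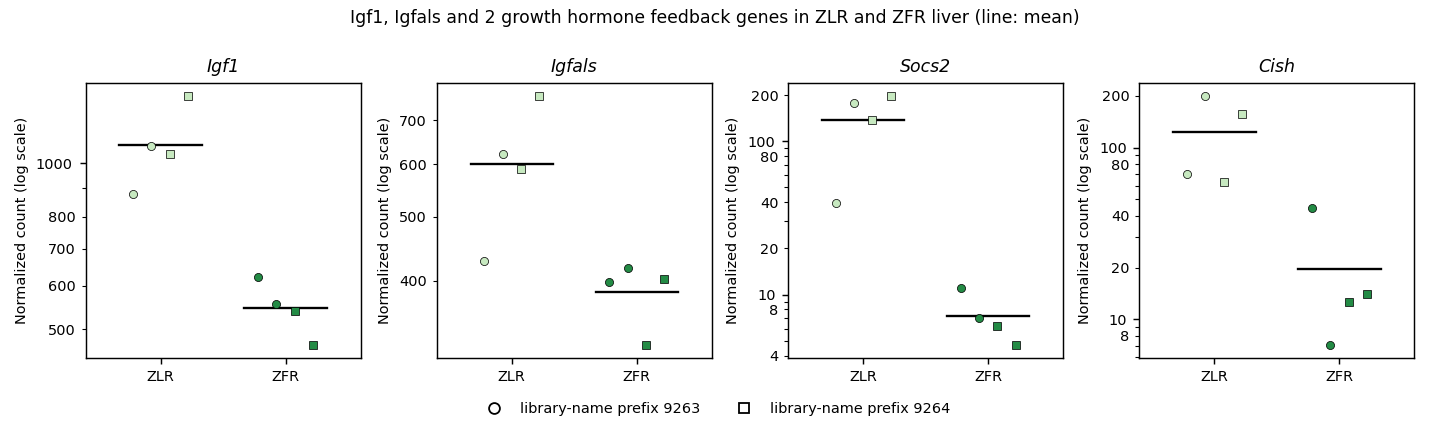
Normalized counts (y axes, log scale) of Igf1, Igfals, Socs2 and Cish in each ZLR and ZFR liver, with the group mean as a line and the marker giving the number that opens the library name. No ZFR point reaches the lowest ZLR point in any panel, with the nearest approach in Igfals (418 against 428).

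Other axis genes in ZFR had values that did not pass. Irs2 was at 48.9 to 94.8 in ZLR and 21.8 to 42.4 in ZFR, a log2 difference of -1.10 without overlap (limma, adjusted p = 0.0680). Igf2r was at 73.1 to 116 and 123 to 160 (0.60, limma, adjusted p = 0.0865). Foxo3 (-1.67), Igfbp5 (0.67), Htra1 (-0.30) and Pik3r1 (0.07) had adjusted p from 0.121 to 0.880 in limma. Of the growth hormone responsive genes 4 were listed and 3 tested, and Cyp7b1 (-2.01) and Hsd3b5 (-1.09) were called lower.

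A few cell-type marker genes were called in this comparison too, where 4.25% of all genes tested were called. Of 8 hepatocyte markers Ttr (-0.43) and Cps1 (-0.58) were called lower, with Alb at -0.15 and Cyp2e1 at -0.97 not passing. Their summed level was 286983, 227748, 218267 and 222467 in ZLR and 171056, 200771, 262215 and 207029 in ZFR, with Alb the most abundant. Stab2 (1.16) was called higher among 7 endothelial markers, and 0 of 7 stellate, 7 Kupffer and 3 cholangiocyte markers tested were called, although Dcn (3.00), Marco (2.10) and Spp1 (1.21) had large values. Clock genes differed strongly, with 4 of 12 called higher and 2 lower. Dbp was at 4.55, 28.0, 7.37 and 0 normalized counts in ZLR and 109, 265, 272 and 181 in ZFR. None of 7 fasting genes was called, the largest value being that of Pdk4 (0.61). The part of the clock genes or of cell makeup in the Igf1 result was not tested.

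BT2 was compared with vehicle in ZFR to ask what this inhibitor changes in the obese liver. By limma 0 of the 6 tested genes were called, as were 0 of 8405 genes in all (a background of 0%), with 0 of the 6 and 332 of all genes (3.95%) at an unadjusted p under 0.05. Other settings of the fit called between 0 and 2 genes of the whole table and none of the 6. The median log2 fold change was 0.20, beside 0.0061 over all genes tested.

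Igf1 was at 825, 809, 787 and 693 normalized counts with vehicle and 824, 917, 957 and 893 with BT2. BT2 replicate 1 lay among the vehicle livers and the other 3 above them, and the log2 difference was 0.21 (95% interval -0.03 to 0.45, limma, adjusted p = 0.898, exact permutation p = 0.0571). Igfbp7 was the one gene of the 6 whose groups did not overlap, at 79.2, 90.7, 86.2 and 61.9 against 99.6, 93.4, 96.4 and 109, as for 1.52% of all genes tested in that direction. Its log2 difference of 0.33 did not pass (limma, adjusted p = 0.898, exact permutation p = 0.0286). Igfbp2 was at 0 to 2.24 and Igf1r at 0 to 0.672 in these 8 livers.

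The values of Igfbp1 lay apart by flow cell in these rats. In the flow cell of replicates 1 and 2 it was at 372 and 611 normalized counts with vehicle and 722 and 710 with BT2, and in that of replicates 3 and 4 at 69.7 and 103 with vehicle and 121 and 294 with BT2. Within each flow cell BT2 was higher, by 0.59 and 1.14 on the log2 scale. The pooled log2 difference of 0.86 had an interval from -0.74 to 2.46 (limma, adjusted p = 0.898). Dbp also differed, at 55.2 and 117 against 316 and 311 in the vehicle livers of the 2 flow cells. In BT2 livers the summed clock genes ran the other way, at 722 and 648 against 427 and 502. The summed fasting genes were at 11083 and 10837 against 7375 and 7873 with vehicle. With BT2 they were at 12037 and 11989 against 6424 and 10647. The part of Dbp and of these lists in the Igfbp1 values was not tested. Igfals (-0.13), Igfbp3 (0.19) and Igfbp4 (0.02) did not pass. For Igfbp3, 3 of the 4 BT2 values lay above every vehicle value, with an interval from -0.27 to 0.66.

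None of the 20 axis genes tested after BT2 was called, with a median log2 fold change of 0.21 and 0 genes at an unadjusted p under 0.05. The largest values of each list were those of Socs3 (2.14), Foxo3 (1.67), Insr (0.28) and Adamts1 (-0.16). Socs2 was at 0 to 35.3 with vehicle and 9.37 to 38.1 with BT2, and Irs2 at 3.67 to 52.4 and 14.7 to 74.7. No marker, fasting, clock or growth hormone responsive gene was called, and the largest values of each list were those of Apoa1 (0.30), Fcgr2b (0.30), Dcn (1.32), Marco (-0.51), Epcam (0.65), Pdk4 (1.26), Dbp (-2.21) and Cyp7b1 (0.76).

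The genes also varied against one another within groups. With group means removed, the pair of highest r in WT/Floxed mice was Igfbp3 with Igfbp4 (r = 0.786, rho = 0.769, 13 libraries), and 2 of 28 pairs had an r beyond 0.6 in size. In the 8 L-Sirt1 KO libraries 8 of 28 pairs did, among them Igf1r with Igfbp2 (r = 0.759, rho = 0.619) and Igfbp1 with Igfbp3 (r = 0.715, rho = 0.857). Igfals and Igfbp1 ran opposite to each other in both rat tables, with r = -0.907 (rho = -1) and -0.847 (rho = -0.929) over 8 libraries each. The same r was -0.543 in WT/Floxed and 0.324 in L-Sirt1 KO mice. The libraries of a table share flow cells and, in rats, differ widely in depth, and these values carry no test.

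Genes most like Igf1, Igfals and Igfbp2 across the 13 WT/Floxed libraries were named by the same measure. For Igf1 they were Litaf (r = 0.869, rho = 0.841), Agtrap (r = 0.856, rho = 0.797) and Rpe (r = 0.805, rho = 0.775), of which Litaf had r = 0.869 in the ZFR and ZLR table and 0.798 in the BT2 table but 0.0353 in L-Sirt1 KO mice. For Igfals they were Apba3 (r = 0.955, rho = 0.868), Hagh (r = 0.948, rho = 0.863) and Timm23 (r = 0.940, rho = 0.901), with Hagh at an r of 0.720, 0.566 and 0.819 in the other 3 tables. For Igfbp2 they were Slc39a1 (r = 0.938, rho = 0.890), Mug1 (r = 0.926, rho = 0.951) and Gm15638 (r = 0.913, rho = 0.863), and of these 3 Mug1 had a positive r in L-Sirt1 KO mice (0.669). These likenesses include the difference between LNA29 and saline.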

How the data were processed

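In the files as deposited, each value is a signal that the authors derived in steps: liver polyA RNA-seq reads were aligned with STAR to mm10 or rn6, gene counts were estimated with Salmon, and the counts were divided by DESeq2 size factors in each of the 4 tables separately. Flow cells were taken from the codes in the library names that the labels give. Columns of the tables were matched to samples by library name, and 0 were left unmatched. Reads could not be recovered as whole counts, since the share of low values that were whole multiples of 1 read (tolerance 0.01) was 69.5% to 75.8% by mouse library and 74.3% to 90.3% by rat library, so count models were not used. Depth was estimated as the column total divided by the value of 1 read, which covers counting error only. Entries without a gene name held 0.0134% to 0.0461% of the counts and were left out, as were repeated names (up to 2.17%).

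Tests used limma 3.58.1 in R 4.3.3 (lmFit and trended eBayes) after a transform to log2(normalized count + 1) for genes with a mean of at least 10, with Benjamini-Hochberg adjustment over all of them. Fold changes are on that scale and understate those of low genes. Single genes were also tested by exact permutation of the group labels, two-sided. Fits were repeated with a pseudocount of 10, without the minimum, with TMM scaling, sample quality weights, flow cell, WT or floxed background or replicate block as a term, precision weights from estimated reads, libraries under 5 M reads (and, added after seeing the data, under 0.5 M) left out, and each library left out in turn. Seed and promoter matches were searched with Python 3.11.15 in GENCODE 3′ UTRs and RefSeq promoters of GRCm38. The main limma fit of each comparison was tested on simulated data, and the interaction test and the alternative fits were not.

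The 8 genes, the lists and the rules were chosen with earlier results of these data known. Named beside the 8 genes are, of each list, the genes called, the most abundant and the one with the largest log2 fold change, and the 3 genes most like Igf1, Igfals, Igfbp1 and Igfbp2. Genes named outside that rule (Irs2 in both rat comparisons, Socs2 after BT2, and Npas2 and Arntl in L-Sirt1 KO mice) were chosen after their values were seen. A gene that this rule would name is not reported here. Rat sequences were not analysed here.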

Additional observations from a re-analysis of the deposited data

Results flagged for a closer look

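In groups of 4 to 10 livers, a value was singled out when its gap to the nearest other value, divided by the range of the group, exceeded Dixon's 95% critical value. This was so for 8 values over 63 combinations of gene and group, and chance flags about 1 in 20 groups. In WT/Floxed saline livers, Igfbp1 of replicate 4 was high (14450 normalized counts, the others 1826 to 4873) and Igfbp7 of replicate 3 was low (4826, the others 6165 to 6530). Igfbp2 of ZLR replicate 1 was 36.1 against 0 to 2.68 in the other 3 ZLR. Igfbp3 of ZFR replicate 2 was 181 against 98.6 to 107, and Igfbp4 of ZLR replicate 4 was 2078 against 2534 to 2561. After BT2, Igfbp3 of replicate 1 was 56.9 against 87.0 to 92.1. A pair of further values, Igf1r of ZFR replicate 1 (0.805) and Igfbp2 of BT2 replicate 3 (1.34), stood out only because the other livers of their groups were at 0.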

How the results depend on the processing

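Of 832 values recomputed under the alternatives, 738 kept their direction and their side of the threshold, and none of the called differences reversed. The number of the 8 genes called in WT/Floxed mice (1) was 0 with the replicate block (Igfbp2 0.61, adjusted p = 0.290), and 1 to 2 when each library was left out. In L-Sirt1 KO mice (2) it was 1 with no minimum mean, 1 with flow cell as a covariate (Igfbp2 0.51, adjusted p = 0.224), 0 at an adjusted p under 0.05 and 1 to 2 with a library left out. In ZFR against ZLR (1) it was 3 with quality weights (Igfals and Igfbp7 added), 2 with precision weights (Igfbp7 added), 0 with libraries under 5 M reads left out (1 ZFR against 2 ZLR, the lone ZFR taken to vary like the ZLR, so not read as a lost call) and 1 to 2 with a library left out. Without libraries under 5 M reads, BT2 against vehicle was not run, since 1 library remained. Replicate numbers did not pair the samples, with same-number correlations of deviations from -0.281 to 0.241 and 1 of 5, 1 of 4, 0 of 4 and 1 of 4 pairs over 0.1 in the 4 comparisons, and the samples share only a number.

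Signs turned in these uncalled values: Igfbp4 in WT/Floxed with flow cell (0.0011), Igfals in L-Sirt1 KO with flow cell (-0.017), Igfbp4 in ZFR without libraries under 5 M reads (0.0019), Igfbp4 after BT2 with TMM scaling (-0.0054), and the difference of Igfbp1 between genotypes with flow cell (0.025). With a library left out, the ranges that crossed 0 were -0.16 to 0.00086 for Igfals, -0.13 to 0.047 for Igfbp3 and -0.11 to 0.021 for Igfbp4 in WT/Floxed, -0.12 to 0.11 for Igfals in L-Sirt1 KO, and -0.035 to 0.096 for Igfbp4 after BT2. Between genotypes they were -0.017 to 0.21 for Igfals, -0.70 to 0.041 for Igfbp1, -0.12 to 0.057 for Igfbp3 and -0.097 to 0.057 for Igfbp7. The cause was not tested. Genes called over the whole table ranged from 56 to 1308 in WT/Floxed (688), 37 to 804 in L-Sirt1 KO (297) and 73 to 2180 in ZFR (367), and depth limits what the rat libraries show for low genes.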
